A study of Mus musculus with 30 samples.

Results

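Cdx2 and 9 further genes used in the trophoblast, Elf5, Tfap2c, Hand1, Ascl2, Gata2, Gata3, Rhox6, Rhox9 and Ets2, were followed in differentiating mouse embryonic stem (ES) cells with and without Jmj. The members were taken by gene symbol from the annotation of the arrays, with every probe set that names the gene. All 10 genes were found, with 20 probe sets, among the 18193 genes measured. Within a gene the probe sets are numbered by brightness, number 1 being the brightest, and a gene named with no number is given by that probe set.

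The trophoblast is the outer lineage of the early mouse embryo and forms the embryonic part of the placenta. Cdx2 is a homeobox factor needed for the trophectoderm, and Elf5, Tfap2c and Gata3 act with it in trophoblast stem cells. Mouse ES cells derive from the inner cell mass and seldom enter the trophoblast on their own. Several of the same factors are used again in the embryo, so their RNA alone does not name the lineage. Elf5, Ascl2, Rhox6 and Rhox9 were treated as trophoblast genes, although Rhox6 and Rhox9 are also used in germ cells. Tfap2c and Gata3 also act in tissues outside the mesoderm, Cdx2, Hand1 and Gata2 also act in mesoderm or its derivatives, and Ets2 is used broadly.

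The null group consisted of ES cells labelled Jmj (-/-), and the Fl/Fl group of ES cells labelled Jmj (fl/fl) and wild type, which carry the floxed allele. Jmj, now Jarid2, encodes a protein that binds Polycomb repressive complex 2 (PRC2), the complex that methylates histone H3 at silenced developmental genes. Differentiation followed withdrawal of LIF, the cytokine that keeps mouse ES cells undifferentiated, and total RNA was taken on days 0, 2, 4, 6 and 8. There were 3 null arrays on day 0, 5 on each of days 2, 4 and 6 and 2 on day 8, and 2 Fl/Fl arrays on each day, 30 arrays in all. The labels call the arrays of a group biological replicates, but nothing says that they came from separate cultures or clones. The p-values therefore speak only of the spread among these arrays, and that spread may be technical. In bulk RNA, fewer cells of a type and less RNA per cell cannot be told apart.

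The values were probe set intensities on a linear scale, with a median of 10 or 11 and a 75th percentile of 82 to 106 on the arrays. Readings of different probe sets are on different scales. Sums over a list, shares of such sums and a common limit of 100 are therefore only rough descriptions. Jarid2 was not lower in null cells by any of its 3 probe sets. The brightest averaged 3299, 2154, 1340, 1006 and 651.5 on null arrays and 3338, 1628, 709.5, 535 and 367.5 on Fl/Fl arrays over days 0 to 8. All 3 probe sets passed as higher in null on days 4 and 6 (limma adjusted p up to 0.0249), the brightest by 0.91 on day 4 and 0.89 on day 6. Where the deletion lies relative to these probes is not stated in the labels, so the level checks nothing about the genotype. Among the null arrays, 11 stood apart from the other 9. They read 594 to 981 for Eif2s3y, a Y-linked gene, and 172 to 348 for Tmem87a, against 11 to 365 and 9 to 12 on the other null arrays, and 130 to 234 and 9 to 12 on Fl/Fl arrays. Their ratio of 3' to 5' actin signal was 1.288 to 1.43, against 1.545 to 2.024 on the other null arrays and 1.48 to 2.037 on Fl/Fl arrays. They were replicates 2 and 3 on day 0 and replicates 3, 4 and 5 on days 2, 4 and 6, with none on day 8. They are called the high-Eif2s3y arrays, a set formed from the data and not a group of the study. The genotype calls of the members and most counts of the gene lists are given with and without them, and changes against day 0 with all arrays. The other 9 null arrays were not alike in Eif2s3y. Replicate 1 of day 2 and replicate 2 of days 4, 6 and 8 read 11 to 16, and the rest 217 to 365. On day 8 null replicate 1 read 365 and replicate 2 read 11. These 9 arrays were not divided further.

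In ES cells PRC2 is found mainly at gene starts rich in CG pairs, and the start of Elf5 is known to carry DNA methylation in ES cells and to lack it in trophoblast stem cells. Neither PRC2 binding nor DNA methylation was measured on these arrays. The starts of 4 members are printed to show a start with few CG pairs beside starts with many, each from 250 bases before to 50 bases after the start, 5′ to 3′ along the gene's strand, with CG pairs in capitals (RefSeq, GRCm38.p6). Elf5 start 1 lies at chr2:103411848-103412147 on the plus strand, Cdx2 at chr5:147307200-147307499 on the minus strand, Gata3 at chr2:9878551-9878850 on the minus strand and Ets2 at chr16:95702157-95702456 on the plus strand.
Elf5 start 1: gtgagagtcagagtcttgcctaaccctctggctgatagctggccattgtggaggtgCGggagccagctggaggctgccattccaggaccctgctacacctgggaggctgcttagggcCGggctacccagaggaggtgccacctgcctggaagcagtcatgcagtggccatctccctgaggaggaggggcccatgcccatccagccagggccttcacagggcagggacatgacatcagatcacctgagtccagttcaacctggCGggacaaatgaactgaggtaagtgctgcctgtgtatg
Cdx2: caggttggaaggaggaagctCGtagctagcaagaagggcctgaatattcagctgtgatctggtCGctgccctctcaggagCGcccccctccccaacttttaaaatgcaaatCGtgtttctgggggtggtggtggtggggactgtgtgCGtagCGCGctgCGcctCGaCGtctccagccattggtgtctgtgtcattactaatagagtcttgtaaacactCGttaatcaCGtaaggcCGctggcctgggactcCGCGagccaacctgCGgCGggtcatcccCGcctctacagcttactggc
Gata3: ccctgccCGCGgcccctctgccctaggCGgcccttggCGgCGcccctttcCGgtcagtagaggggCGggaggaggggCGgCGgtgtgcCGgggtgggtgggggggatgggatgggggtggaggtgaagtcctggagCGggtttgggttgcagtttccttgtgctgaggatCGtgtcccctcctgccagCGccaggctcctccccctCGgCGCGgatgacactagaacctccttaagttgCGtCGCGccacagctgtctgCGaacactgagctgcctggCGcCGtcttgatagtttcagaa
Ets2: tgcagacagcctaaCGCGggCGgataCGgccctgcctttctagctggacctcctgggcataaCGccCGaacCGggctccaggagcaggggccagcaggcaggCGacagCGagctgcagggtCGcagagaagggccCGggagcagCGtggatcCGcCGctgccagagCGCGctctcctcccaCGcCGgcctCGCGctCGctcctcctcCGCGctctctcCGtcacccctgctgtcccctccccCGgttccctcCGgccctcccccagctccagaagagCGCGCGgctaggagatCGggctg

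These stretches hold 3 CG pairs at Elf5 start 1, 18 at Cdx2, 22 at Gata3 and 30 at Ets2. Over 32851 gene starts of the same length the median was 7 pairs, with a 25th percentile of 3 and a 75th of 20. Elf5 start 1 therefore stood at percentile 27.3, Cdx2 at 71.1, Gata3 at 77.7 and Ets2 at 88.9. A second Elf5 start held 10 pairs, Ascl2 held 23, and both starts of Gata2 held 32 and 29. The genes Tfap2c, Hand1, Rhox6 and Rhox9 had no entry. The difference in null was not read against CG content, since only 6 genes had a start.

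**Figure D1:**
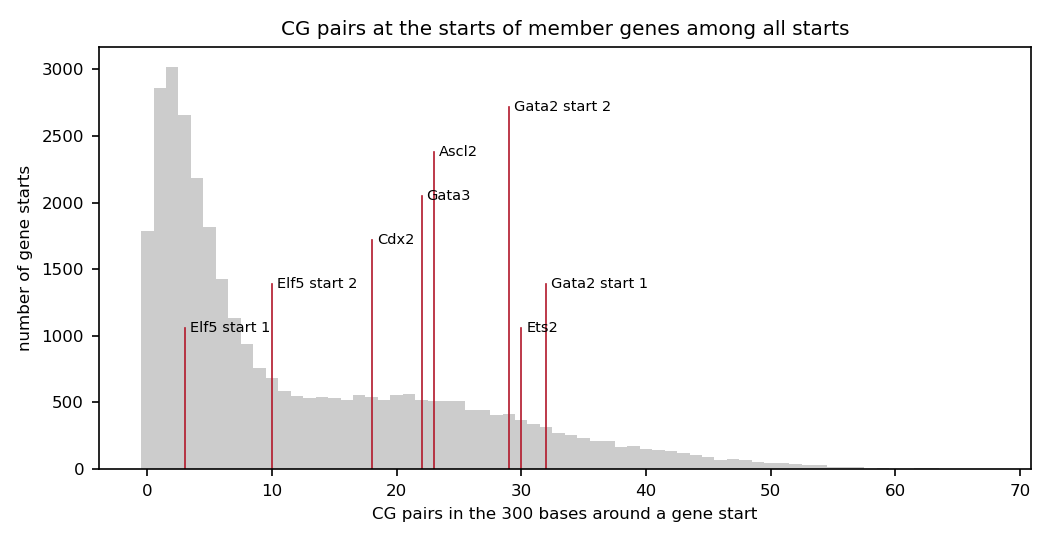
Number of gene starts (y axis) by CG pairs in the 300 bases around the start (x axis), for 32851 mouse gene starts in grey, with member genes as red lines whose height carries no value. Elf5 start 1 lies low at 3 pairs, Cdx2 at 18, and Gata3, Ascl2, Gata2 and Ets2 at 22 or more.

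Elf5 gave no signal that rose on any array. Elf5, an ETS factor that stabilises the trophoblast stem cell state, read 5 on all 30 arrays by probe set 1, and 4 or 5 on every array by probe set 2. Null and Fl/Fl cells could not be told apart for this gene on any day. Other trophoblast genes differed widely in level. Of 20 measured in a list of 28, 7 had a group mean of 100 or more, namely Eomes, Plet1, Bmp8b, Phlda2, Peg10, Cdh3 and Id2, several of which other tissues also use. Of the 5 other defining markers of the trophoblast that were measured, Eomes and Krt7, both also used outside the trophoblast, were not low, with Krt7 averaging up to 146 in null and 521 in Fl/Fl cells, and Ctsq, Tpbpa and Plac1 had low group means. Ctsq, a cathepsin of placental giant cells, lay between 5.5 and 6 in null and between 5 and 6 in Fl/Fl cells. Tead4, needed for the trophectoderm, lay between 12 and 12.3 in null and between 12 and 13 in Fl/Fl cells. Tpbpa, a spongiotrophoblast marker, was highest at day 0, at 27.7 in null and 34 in Fl/Fl cells. Plac1, a placental gene, read 6 in null and 35.5 in Fl/Fl cells on day 8, and at most 7 in every other group, and its 3.43-fold rise from day 0 passed in Fl/Fl cells (limma adjusted p = 4.29e-07).

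Ascl2, Rhox6 and Rhox9 were expressed before differentiation and declined after LIF was withdrawn, in both genotypes for the Rhox genes. Rhox6 and Rhox9 are X-linked homeobox genes known for expression in the mouse placenta and in germ cells. Rhox6 read 248, 53 and 30 on null arrays and 240 and 373 on Fl/Fl arrays on day 0. Its day 2 readings were 49, 52, 22, 12 and 16 on null arrays and 113 and 146 on Fl/Fl arrays. One null array of day 0 lay within the Fl/Fl range and the other 2 far below it, while on day 2 all null arrays lay below. From day 4 on no null array exceeded 13 and no Fl/Fl array exceeded 21. The fall by day 4 was 5.57-fold in null cells (limma adjusted p = 0.000847) and 14.7-fold in Fl/Fl cells (limma adjusted p = 0.000211).

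Rhox9 had a like course. It read 132, 18 and 33 on null arrays and 163 and 229 on Fl/Fl arrays on day 0. On day 2 it read 41, 21, 22, 19 and 18 on null arrays and 57 and 105 on Fl/Fl arrays. On both days every null array lay below every Fl/Fl array. The difference passed the test on day 0, at -2.04 on the log2 scale (SE 0.453, limma adjusted p = 0.0316), and not on day 2, at -1.59 (SE 0.415, adjusted p = 0.0923). Leaving out 1 array ended the day 0 call in 4 of 5 cases, with adjusted p up to 0.14, while the difference stayed between -2.79 and -1.48 in all 5. By day 8 Rhox9 had fallen 3.00-fold in null cells (limma adjusted p = 0.0135) and 12.7-fold in Fl/Fl cells (limma adjusted p = 9.29e-06).

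For Rhox6 neither single day passed the test: the difference was -1.95 on day 0 (SE 0.565, limma adjusted p = 0.105) and -2.14 on day 2 (SE 0.518, limma adjusted p = 0.0824). Averaged over the 5 days with equal weight, both genes were lower in null. The mean difference was -0.99 for Rhox6 (SE 0.246, limma adjusted p = 0.00779) and -0.77 for Rhox9 (SE 0.197, limma adjusted p = 0.00981). The high-Eif2s3y arrays held the lowest values of Rhox6 on days 0 and 2. Without them the day 0 difference of Rhox6 was -0.27 and that of Rhox9 -0.54, from 1 null array, and neither passed the test. The mean of the 5 days was then -0.48 for Rhox6 (limma adjusted p = 0.0298) and -0.45 for Rhox9 (adjusted p = 0.102). Of 11 neighbours in the Rhox cluster, Rhox5 and Rhox13 were measured, and 0 of these 2 passed a daily comparison of genotypes. Rhox5, the cluster's founding member, averaged 3380, 2479, 450.4, 68.4 and 70.5 in null cells and 4409, 2614, 259, 134.5 and 117.5 in Fl/Fl cells over days 0 to 8.

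Ascl2 encodes a basic helix-loop-helix factor that maintains spongiotrophoblast precursors and is imprinted in the mouse. It read 48, 15 and 28 on null arrays and 32 and 102 on Fl/Fl arrays on day 0. Readings of day 2 were 15, 18, 15, 15 and 15 on null arrays and 27 and 30 on Fl/Fl arrays. Later readings lay between 13 and 16 on null arrays and at 14 or 15 on Fl/Fl arrays, close to the lowest values of this probe set. The day 0 groups overlapped, and the day 2 groups did not. In Fl/Fl cells the fall by day 4 was 3.34-fold (limma adjusted p = 0.00146). In null cells the fall passed the test on days 6 and 8, at 1.76-fold and 1.81-fold, although the test over all days did not (limma F test, adjusted p = 0.0799).

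The 3 probe sets of Ascl2 did not give 1 answer between genotypes. Probe set 3 read 7, 4 and 4 on null arrays and 12 and 105 on Fl/Fl arrays on day 0. Its difference of -2.23 (SE 0.401, limma adjusted p = 0.00667) passed, while probe set 1 gave -0.97 (adjusted p = 0.164). Most of the probe set 3 difference lay in a single array, and without Fl/Fl replicate 2 it was -0.85. Without the high-Eif2s3y arrays it was -1.92 (limma adjusted p = 0.403). For the mean of the 5 days probe set 3 passed at -0.54 (adjusted p = 0.0393), a call lost in 11 of 30 fits that leave out 1 array.

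**Figure D2:**
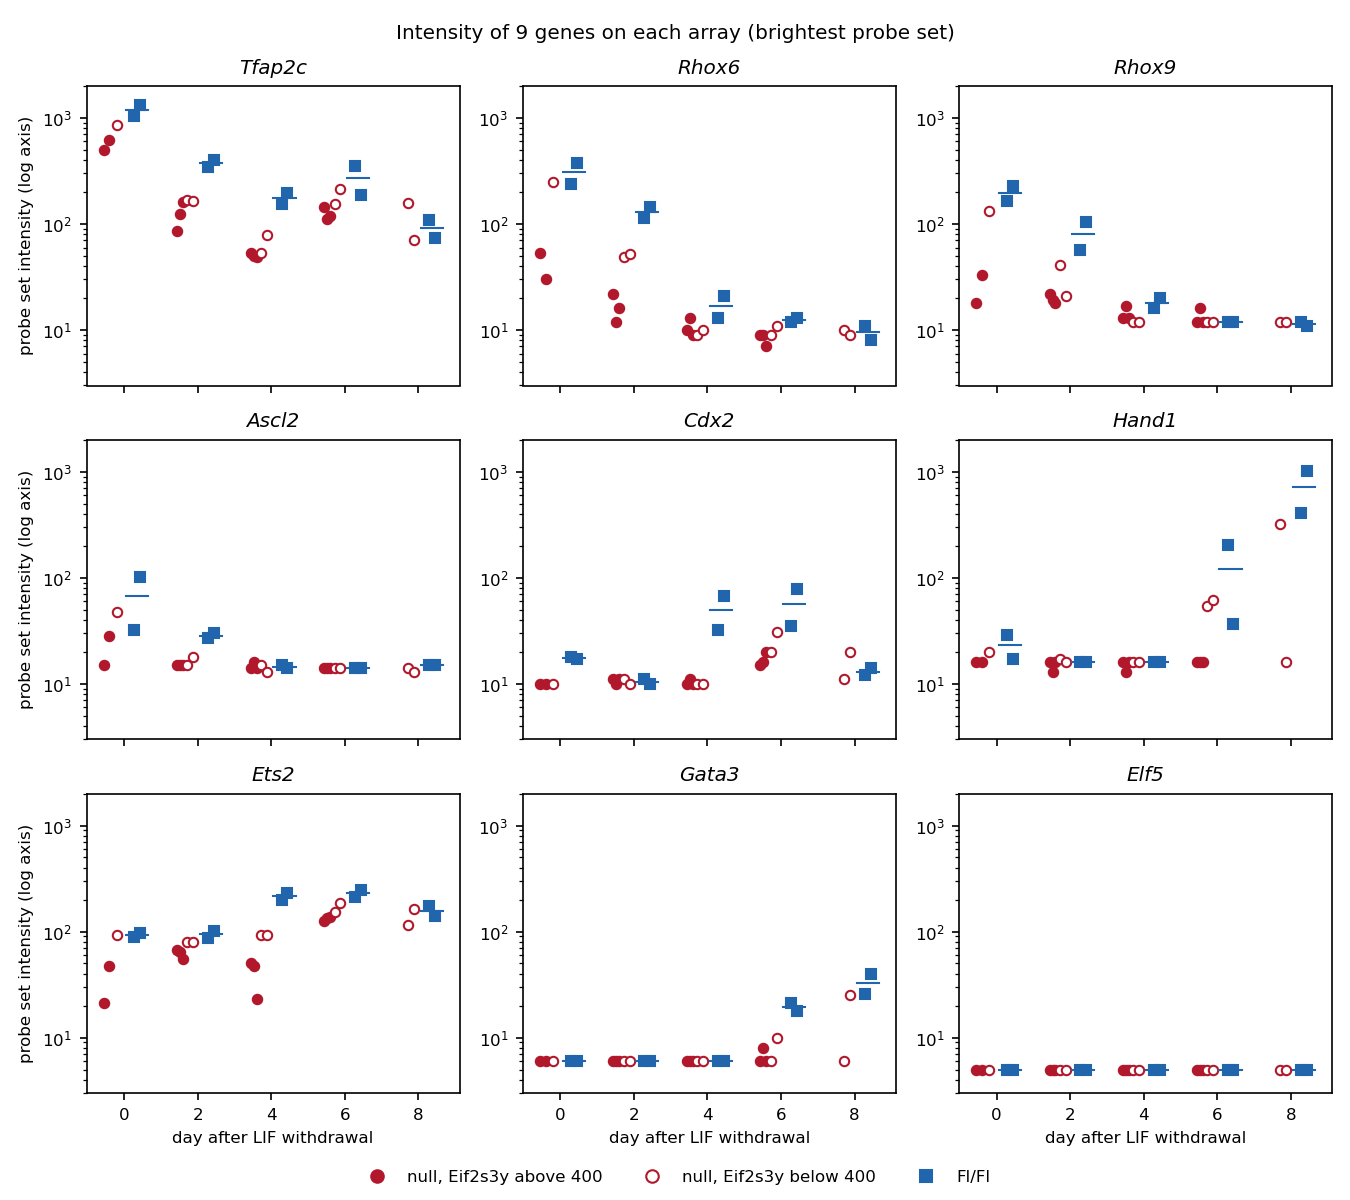
Probe set intensity (log axis) on each array against the day after LIF withdrawal, for the brightest probe set of 9 genes. Red circles are null arrays, filled where Eif2s3y exceeded 400, blue squares are Fl/Fl arrays and blue bars their means. Tfap2c, Rhox6, Rhox9 and Ascl2 start high and decline, Cdx2 is raised in Fl/Fl cells on days 4 and 6, Hand1 and Gata3 rise late, and Elf5 stays at 5.

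Tfap2c, an AP-2 factor of trophoblast stem cells that is also used in primordial germ cells, reached 100 or more on 22 of 30 arrays and fell early. It read 865, 503 and 617 on null arrays and 1041 and 1312 on Fl/Fl arrays on day 0. On day 2 it read 169, 164, 85, 124 and 161 on null arrays and 348 and 403 on Fl/Fl arrays. On day 4 it read 53, 78, 53, 50 and 49 on null arrays and 156 and 194 on Fl/Fl arrays. On these 3 days every null array lay below every Fl/Fl array. On day 6 null arrays read 154, 214, 146, 111 and 118 and Fl/Fl arrays 350 and 187, and on day 8 null arrays read 159 and 70 and Fl/Fl arrays 109 and 74, so that the groups overlapped. From day 4 to day 6 the null arrays moved up without overlap by the brightest probe set, while the Fl/Fl arrays of both days overlapped. By probe sets 2 and 3 the null arrays overlapped and the Fl/Fl arrays moved up without overlap. Probe set 2 read 22 to 24 and then 23 to 33 on null arrays, and 28 and then 33 to 41 on Fl/Fl arrays. Probe set 3 read 8 to 12 and then 11 to 70 on null arrays, and 19 to 35 and then 52 to 61 on Fl/Fl arrays. The change from day 4 to day 6 was not tested.

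The fall by day 2 was 4.62-fold in null cells (limma adjusted p = 4.93e-05) and 3.10-fold in Fl/Fl cells (limma adjusted p = 0.0285). Between genotypes the day 4 difference of -1.57 passed (SE 0.324, limma adjusted p = 0.00396). The day 2 difference of -1.43 had an adjusted p of 0.054 in the same limma fit. Probe set 2, which read 29, 33, 24, 28 and 28 on null arrays and 51 and 56 on Fl/Fl arrays on day 2, passed on that day at -0.83 (SE 0.132, limma adjusted p = 0.00316). All 3 probe sets of Tfap2c passed for the mean of the 5 days, at -0.89, -0.39 and -1.04. The largest of their limma adjusted p-values was 0.0123, and an exact permutation test within days (two-sided, 555660 regroupings) gave p between 1.44e-05 and 0.00109. Whether the difference changed between days did not pass for probe set 1 (limma F test, adjusted p = 0.223). The day 4 call was lost without Fl/Fl replicate 2 of that day, at -1.42 (limma adjusted p = 0.0801), and without the high-Eif2s3y arrays, at -1.38 (adjusted p = 0.134).

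Gata3, a zinc finger factor of the trophectoderm that is also needed in T cells, kidney and inner ear, appeared late and faintly. It read 6 on every array of both genotypes through day 4. On day 6 it read 6, 10, 6, 8 and 6 on null arrays and 21 and 18 on Fl/Fl arrays. On day 8 it read 6 and 25 on null arrays and 26 and 40 on Fl/Fl arrays. On both days the null arrays lay below the Fl/Fl arrays, on day 8 by a single unit. The difference was -1.08 on day 6 (SE 0.229, limma adjusted p = 0.00513) and -1.09 on day 8 (SE 0.274, limma adjusted p = 0.0367).

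Against day 0 Gata3 was 2.35-fold higher on day 6 and 3.63-fold higher on day 8 in Fl/Fl cells (limma adjusted p = 0.00229 and 2.56e-05). In null cells it was 1.70-fold higher on day 8 (limma adjusted p = 0.029), which rested on replicate 2. The day 8 difference between genotypes was -0.33 without null replicate 1 (limma adjusted p = 0.486). The day 6 difference was -0.99 without Fl/Fl replicate 1 (limma adjusted p = 0.0914) and also -0.99 without the high-Eif2s3y arrays (adjusted p = 0.338), so that it stayed near its size and the calls were lost. Highest readings of 40 stay below the 75th percentile of an array.

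Cdx2 was the only member whose genotype difference passed the test for changing between days (limma F test, adjusted p = 0.0061), a test that 3.42% of all probe sets passed. It was raised in the middle of the course in Fl/Fl cells, and in null cells it was at its lowest readings through day 4. The signal was faint, since its highest reading of 79 lay below the 75th percentile of an array, which was at least 82. Besides the trophectoderm, Cdx2 acts in the primitive streak, the posterior embryo and the intestinal epithelium. On day 0 Cdx2 read 10 on each of the 3 null arrays and 18 and 17 on Fl/Fl arrays. On day 2 it read 11, 10, 11, 10 and 11 on null arrays and 11 and 10 on Fl/Fl arrays, with no separation.

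On day 4 Cdx2 read 10, 10, 10, 11 and 10 on null arrays and 32 and 68 on Fl/Fl arrays. On day 6 it read 20, 31, 15, 16 and 20 on null arrays and 35 and 79 on Fl/Fl arrays. On day 8 it read 11 and 20 on null arrays and 12 and 14 on Fl/Fl arrays. All null arrays lay below all Fl/Fl arrays on days 0, 4 and 6, and the groups overlapped on days 2 and 8. In order of level, the Fl/Fl groups of days 6 and 4 came at the top and overlapped each other, and null day 6 came next, with its highest array 1 unit below the lowest of these. All remaining groups read 20 or less.

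The difference was -1.84 on day 4 (SE 0.251, limma adjusted p = 6.91e-05) and -1.26 on day 6 (SE 0.251, limma adjusted p = 0.00313). On day 0 it was -0.62 (SE 0.274) and did not pass (limma adjusted p = 0.43). Against day 0 Cdx2 was 2.37-fold higher on day 4 and 2.65-fold higher on day 6 in Fl/Fl cells (limma adjusted p = 0.00821 and 0.00159), and 1.70-fold higher on day 6 in null cells (limma adjusted p = 0.0147). For the mean of the 5 days the difference was -0.71 (SE 0.119, limma adjusted p = 0.000318), and the exact permutation test within days gave p = 0.00061.

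The day 4 result kept its call in every fit that leaves out 1 array, with adjusted p up to 0.01. It was as large without the high-Eif2s3y arrays, at -1.86 (limma adjusted p = 0.045). The day 6 call was lost without Fl/Fl replicate 2 of that day, at -0.71 (limma adjusted p = 0.28), and without the high-Eif2s3y arrays, at -0.97 (adjusted p = 0.354). Without those arrays 0 member probe sets passed the test for a difference that changes between days. The second probe set of Cdx2 read 5 on all arrays but 2, with 29 on null replicate 2 of day 6 and 6 on Fl/Fl replicate 1 of day 4, so it did not repeat the course of the brighter one.

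The relatives of Cdx2 did not accompany it. Group means of Cdx1, which acts with it in the posterior embryo, lay between 5 and 5.5, and Cdx4 read 7 in all 10 groups. Genes of the primitive streak and mesoderm took different courses. Of 32 measured, 10 were higher and 2 lower on day 4 than on day 0 in Fl/Fl cells, where 12.5% of all probe sets passed, and 1 was higher and 2 lower in null cells, where 9.09% did. The calls in Fl/Fl cells include steps near the lowest readings. Hoxb1 is counted as higher with means of 5 and then 7, and Cdx1 as lower with means of 5.5 and then 5. Mesp2, Tbx6 and Wnt3a, which act in early mesoderm, did not pass for a change over days in either genotype. Mixl1, a homeobox gene of the streak, averaged 4.7, 5, 9.8, 2701 and 1204 in null cells and 5, 5, 2037, 1750 and 87 in Fl/Fl cells over days 0 to 8. Eomes, which is used both in the trophoblast and in the streak, averaged 39.7, 58.2, 388.4, 2396 and 1814 in null cells and 70, 98.5, 1155, 1794 and 355 in Fl/Fl cells. The 2 null arrays of day 8 differed strongly from each other in both genes. Mixl1 read 81 and 2327 on them, beside 25 and 149 on Fl/Fl arrays. Eomes read 177 and 3450 on them, beside 271 and 439 on Fl/Fl arrays. In Fl/Fl cells both genes had risen by day 4, when Cdx2 was raised (limma adjusted p = 1.1e-05 for Mixl1 and 0.0043 for Eomes, against day 0). In null cells Eomes was already 7.97-fold higher on day 4 (limma adjusted p = 0.00405), while Cdx2 read 10 or 11 and Mixl1 did not pass (adjusted p = 0.885). On day 6 the groups of Mixl1 and of Eomes overlapped, while those of Cdx2 did not.

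Between genotypes, of the 32 measured mesoderm genes (35 in the list), 0 passed on days 0 and 2, 9 were lower and 0 higher in null on day 4, 3 were lower and 1 higher on day 6, and 0 were lower and 2 higher on day 8. On day 4 the lower ones included Mixl1 at -7.41 (limma adjusted p = 4.93e-06), Evx1 at -3.96 (limma adjusted p = 6.91e-06), Bmp4 at -4.05 (limma adjusted p = 0.000121) and Fgf8 at -3.90 (limma adjusted p = 0.000483). Evx1 is a posterior homeobox gene, and Fgf8 and Bmp4 encode signals of the streak. The list's median difference was -0.35 on day 4, beside a median of 0 over all genes. Of all 18193 genes, by 1 probe set each, 9.86% passed on that day, 8.67% on day 6 and 2.44% on day 8. Without the high-Eif2s3y arrays 4 of the 32 were lower on day 4 and 3 on day 6, all 9 day 4 differences kept their sign, and Fgf8 at -2.89 no longer passed (limma adjusted p = 0.133).

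Among 5275 genes with a group mean of 100 or more and a range of at least 1 log2 unit, those most like Cdx2 over the 10 group means were Lrp8 (Pearson's r = 0.936), Bik (r = 0.932), Mocs1 (r = 0.923), Pdgfrl (r = 0.913), Gbp7 and Grsf1 (r = 0.912 each), Ppp2r2c (r = 0.909) and Pkia (r = 0.907). These are descriptions over points that share the same 30 arrays. Lrp8, a lipoprotein receptor, was lower in null on day 4 by -2.28 and Mocs1, an enzyme of molybdenum cofactor synthesis, by -4.47, as log2 differences. The day 4 group means were among those used to pick these genes, so their differences are no separate result.

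**Figure D3:**
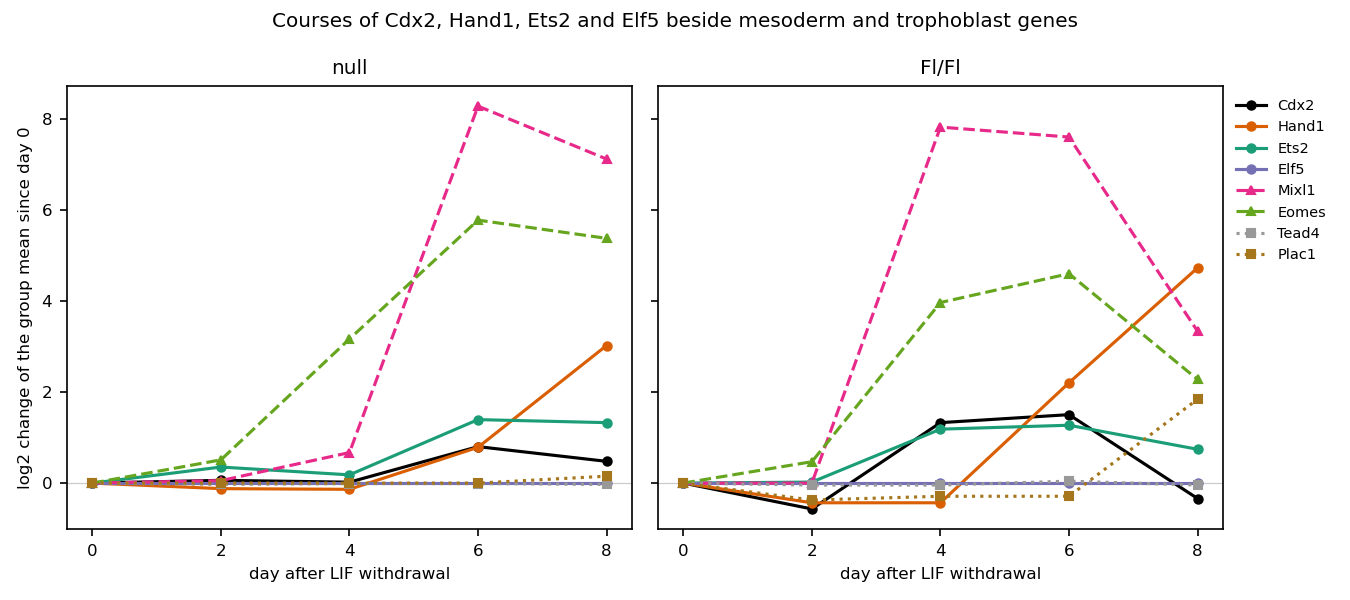
Change since day 0 of log2 of the group mean intensity plus 4 (y axis) against the day after LIF withdrawal (x axis), with null at left and Fl/Fl at right, for 4 member genes (circles), Mixl1 and Eomes (triangles) and Tead4 and Plac1 (squares). In Fl/Fl cells Cdx2, Mixl1 and Eomes are raised on days 4 and 6. In null cells Eomes is raised from day 4 and Cdx2 on day 6. Elf5 and Tead4 stay flat in both, and lines join group means of 2 to 5 arrays.

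Hand1, a helix-loop-helix factor of trophoblast giant cells that also acts in heart and extraembryonic mesoderm, rose late. On days 2 and 4 it read between 13 and 17 on null arrays and 16 on every Fl/Fl array. On day 6 it read 54, 62, 16, 16 and 16 on null arrays and 204 and 37 on Fl/Fl arrays. On day 8 it read 323 and 16 on null arrays and 406 and 1020 on Fl/Fl arrays. The groups overlapped on day 6, and on day 8 both null arrays lay below both Fl/Fl arrays but differed strongly from each other. By probe set 2 the day 8 groups overlapped, at 8 and 158 on null arrays and 153 and 428 on Fl/Fl arrays.

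In Fl/Fl cells Hand1 was 24.6-fold higher on day 8 than on day 0 by probe set 1 (limma adjusted p = 0.000347) and 16.9-fold higher by probe set 2 (limma adjusted p = 0.000455). In null cells the rise of 3.81-fold did not pass (limma adjusted p = 0.0841). Between genotypes the day 8 difference was -3.00 (SE 0.863, limma adjusted p = 0.0795) and did not pass. It was -0.99 without null replicate 2 and -5.02 without null replicate 1 (limma adjusted p = 0.000188), so the 2 null arrays of that day decided the value. On day 6 the 3 null arrays that read 16 were the high-Eif2s3y arrays. The mean of the 5 days, -0.99 by probe set 1, had a limma adjusted p of 0.0537 and an exact permutation p of 0.0132. By probe set 2 it was -0.56, with an exact permutation p of 0.281.

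The genes whose 10 group means were most like those of Hand1 were Fam114a1 (r = 0.997), Fbn2 (r = 0.994) and Actg2 (r = 0.99), of which Fbn2 encodes a fibrillin and Actg2 a smooth muscle actin. For Gata3 they were Nppb (r = 0.997), Igfbp5 (r = 0.996) and Klhl30 (r = 0.996), of which Nppb encodes a natriuretic peptide of the heart and Igfbp5 a binding protein of insulin-like growth factors. Of 12 fibroblast and feeder cell markers, 5 changed over the days in null (28.5% of all probe sets) and 9 in Fl/Fl cells (28.4%). Unequal numbers of arrays enter these counts, which are not set against each other. On day 8, 6 of these 12 markers were lower in null and 0 higher (3 lower without the high-Eif2s3y arrays), where 2.44% of all genes passed. Their summed intensity on that day was 2795 and 11317 on null arrays and 20239 and 24362 on Fl/Fl arrays. Thbs1, which many cell types express, made up 87.2% of that sum in null and 38.8% in Fl/Fl cells. On day 6 the sum over the 12 markers ran between 840 and 4818 on null arrays and was 6764 and 9662 on Fl/Fl arrays. The part of such cells in the readings of Hand1 and Gata3 was not tested. Summed intensity of 12 primitive and visceral endoderm markers was 519 and 526 on null arrays and 693 and 781 on Fl/Fl arrays on day 8, when 0 of these 12 passed.

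Gata2, a relative of Gata3 used in giant cells and in blood and vessel precursors, stayed near its lowest values. Probe set 1 read between 9 and 14 on null arrays and between 9 and 17 on Fl/Fl arrays over all days. Probe set 2 read 3 or 4 on every null array, and 4, 19, 5, 7, 4, 4, 4, 5, 4 and 12 on the Fl/Fl arrays in order of day and replicate. Its mean of the 5 days was -0.34 (limma adjusted p = 0.0496), a call lost in 28 of 30 fits that leave out 1 array. No direction is read from Gata2, since probe set 1 gave -0.04.

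Ets2, an ETS factor that maintains trophoblast stem cells and is used in many other tissues, stayed detectable throughout. It read 92, 21 and 47 on null arrays and 89 and 96 on Fl/Fl arrays on day 0. Its day 2 readings were 80, 80, 67, 64 and 55 on null arrays and 87 and 101 on Fl/Fl arrays. On day 4 it read 92, 92, 51, 47 and 23 on null arrays and 200 and 231 on Fl/Fl arrays. On day 4 the highest null array lay below the level of either Fl/Fl array by more than 100 units. On day 6 null arrays read 152, 185, 126, 134 and 137 and Fl/Fl arrays 212 and 246, still without overlap. On day 8 null arrays read 116 and 164 and Fl/Fl arrays 174 and 141, and the groups overlapped.

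The day 4 difference of Ets2 was -1.90 (SE 0.404, limma adjusted p = 0.00522), and no other single day passed. Against day 0 Ets2 was 3.01-fold higher on day 6 in null cells (limma adjusted p = 0.00226), and 2.27-fold higher on day 4 in Fl/Fl cells, which did not pass (limma adjusted p = 0.125). The difference on day 4 was -1.19 without the high-Eif2s3y arrays and passed (limma adjusted p = 0.00692). It was -1.80 without Fl/Fl replicate 2 and did not pass (limma adjusted p = 0.0771). For the mean of the 5 days it was -0.82 (SE 0.192, limma adjusted p = 0.00526, exact permutation p = 0.000126). Probe set 2 of Ets2 read 5 on all arrays and probe set 3 read 4 or 5, so this result comes from probe set 1 alone. The genes most like Ets2 over the 10 group means were Efna3 (r = 0.976), Cd276 (r = 0.973) and Rdh10 (r = 0.967).

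Counted over the members, all differences that passed were lower in null. On day 0, 2 of 20 member probe sets passed as lower, where 0.875% of all 45037 probe sets passed and 0.713% were lower. The count for day 2 was 1, where 0.442% passed and 0.371% were lower. For day 4 it was 3, where 6.99% passed and 4.59% were lower. For day 6 it was 2, where 6.65% passed and 4.49% were lower, and for day 8 it was 1, where 2.19% passed and 1.66% were lower. For the mean of the 5 days 10 of 20 passed, where 16.1% of all probe sets passed and 10.9% were lower. They came from 8 of the 10 genes, counting a gene if any of its probe sets passed. By the brightest probe set 6 of the 10 genes passed as lower, where 20.9% of all genes passed and 14.2% were lower. The counts of single days hold few probe sets, and nothing particular to the list is read from them.

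By the brightest probe set the median differences over the 10 genes were -0.74 on day 0, -0.27 on day 2, -0.19 on day 4, -0.49 on day 6 and -0.06 on day 8, while the medians over all genes lay within 0.01 of 0. Every null array lay below every Fl/Fl array for 5 of 20 member probe sets on day 0, where 7.84% of all probe sets did, and for 10 on day 2, where 6.08% did. The same held for 5 on day 4 (10.5% of all), 4 on day 6 (10.9% of all) and 5 on day 8 (15.1% of all), and the day 8 groups hold 2 arrays each. The 10 of day 2 were all probe sets of Tfap2c and Ascl2 and 1 each of Gata2, Rhox6, Rhox9 and Ets2. Probe sets of 1 gene do not count as separate members. On day 2, 1 member probe set lay higher in null on every array, where 3.62% of all probe sets did: probe set 2 of Hand1 read 9, 11, 13, 11 and 34 on null arrays and 5 and 8 on Fl/Fl arrays. Several of these probe sets differ by 1 or a few units at their lowest readings, such as Ascl2 on day 8 with 14 and 13 on null arrays and 15 on both Fl/Fl arrays.

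Against day 0, 3 member probe sets had fallen by day 2 in null cells (3.26% of all probe sets passed) and 3 in Fl/Fl cells (1.93% passed). By day 4, 5 had fallen in null cells (9.09% passed), and 1 had risen and 8 had fallen in Fl/Fl cells (12.5% passed). By day 6, 2 had risen and 6 had fallen in null cells (21.5% passed), and 2 had risen and 9 had fallen in Fl/Fl cells (24.4% passed). By day 8, 2 had risen and 6 had fallen in null cells (23.9% passed), and 3 had risen and 8 had fallen in Fl/Fl cells (24.4% passed). These comparisons share the day 0 arrays of each genotype. The risers were Cdx2, Gata3, Hand1 and Ets2, and the falls were those of Tfap2c, Ascl2, Rhox6, Rhox9 and, on day 6 in Fl/Fl cells, Gata2.

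By role, of the trophoblast genes Rhox9 differed on day 0 and in the mean of the days, Rhox6 in the mean, Ascl2 by probe set 3 alone, and Elf5 on no day. Of the genes shared with mesoderm, Cdx2 differed on days 4 and 6 and in the mean. Hand1 differed neither on a day nor in the mean by the test. Gata2 passed in the mean by probe set 2 alone, and no direction is read from it. Tfap2c passed on day 4, on day 2 by probe set 2 alone, and in the mean by all 3 probe sets. Gata3 passed on days 6 and 8 and in the mean, at -0.43, and Ets2 on day 4 and in the mean. Over the days, 7 member probe sets changed in null (28.5% of all probe sets) and 13 in Fl/Fl cells (28.4% of all). The unequal numbers of arrays in the groups enter these 2 counts, and they are not set against each other.

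Without the 11 high-Eif2s3y arrays 0 of 20 member probe sets passed on days 0, 2, 6 and 8, 2 passed on day 4 and 3 for the mean of the 5 days. Over all probe sets that fit passed 2.06% on day 0, 0.309% on day 2, 2.39% on day 4, 0.979% on day 6, 1.14% on day 8 and 6.86% for the mean. The 2 on day 4 were those of Cdx2 and Ets2, and the 3 in the mean were those of Rhox6, Ets2 and probe set 2 of Tfap2c. That fit has fewer arrays, with 1 null array on day 0. With the high-Eif2s3y arrays as the null group, 9 passed on day 0, 5 on day 2, 4 on day 4 and 6 on day 6. In that fit 10.5%, 7.86%, 17.5% and 16.3% of all probe sets passed on those days.

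**Figure D4:**
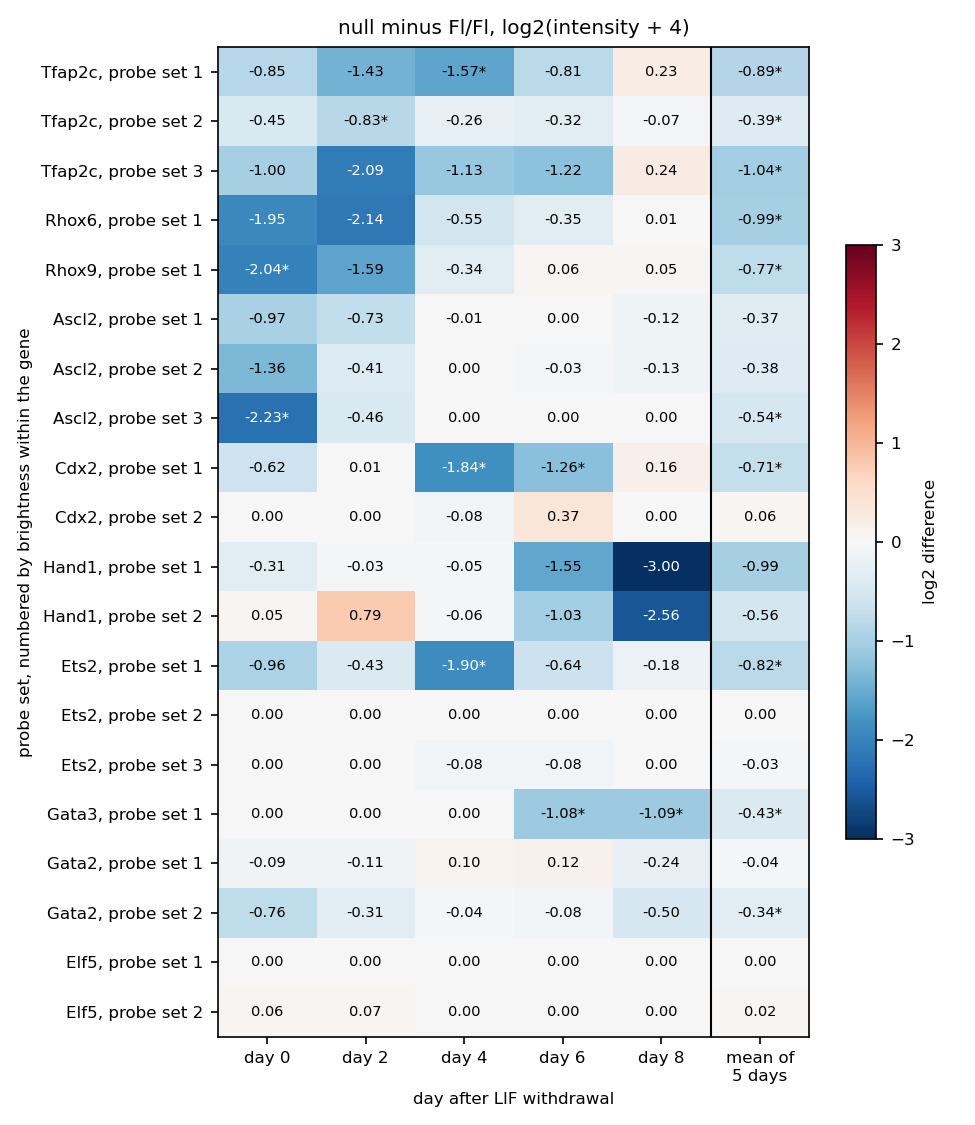
Difference null minus Fl/Fl of log2(intensity + 4), as colour and printed value, for the 20 member probe sets (rows) on each day and as the mean of the 5 days (columns). An asterisk marks a limma adjusted p under 0.05; all marked values are negative.

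Of the 20 other trophoblast genes measured, 0 passed on days 0 and 2, 3 were lower in null on day 4, 3 on day 6, 2 on day 8 and 9 for the mean of the 5 days, with 0 higher in each. Of all 18193 genes, by 1 probe set each, 1.06% passed on day 0, 0.544% on day 2, 9.86% on day 4, 8.67% on day 6 and 2.44% on day 8. For the mean 20.9% passed, and 14.2% of all were lower. Plet1, a surface protein of trophoblast progenitors, was lower by -2.84 on day 4 (limma adjusted p = 5.92e-05) and by -1.61 on day 6 (limma adjusted p = 0.0111). Bmp8b, a growth factor of the extraembryonic ectoderm, was lower by -1.79 on day 4 (limma adjusted p = 0.0087). Peg10, an imprinted gene needed for the placenta, was lower by -2.23 on day 4 (limma adjusted p = 0.0237). On day 8 Plac1 was lower by -1.90 (limma adjusted p = 9.94e-07) and Dlx3, a homeobox gene of the placenta, by -0.75 (limma adjusted p = 7.26e-05). Without the high-Eif2s3y arrays 1 of the 20 was lower on day 4, 0 on day 6, 2 on day 8 and 2 for the mean, and on day 0, from 1 null array, Gjb5 was higher. Plet1 then passed on day 4 at -2.58 (limma adjusted p = 0.0134), and Peg10 at -3.08 did not (adjusted p = 0.0767). These lists share genes with other tissues, and Eomes stands in both the trophoblast and the mesoderm list.

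Simple-epithelial keratins are shared by trophoblast and other epithelia. Of the 4 measured, 3 were lower in null on day 0, 3 on day 2, 4 on day 4, 2 on day 6 and 0 on day 8, beside 1.06%, 0.544%, 9.86%, 8.67% and 2.44% of all genes that passed in either direction. Without the high-Eif2s3y arrays 3, 3, 3, 0 and 0 were lower on these days. On day 0 Krt18 averaged 399.7 in null and 3624 in Fl/Fl cells and differed by -3.21 (limma adjusted p = 0.000429), and Krt8 averaged 307.7 in null and 2696 in Fl/Fl cells and differed by -3.23 (limma adjusted p = 0.00094). Summed over the 4 keratins the intensity on day 0 ran between 517 and 1146 on null arrays and was 6160 and 7616 on Fl/Fl arrays. On day 8 it was 38231 and 60093 on null arrays and 54536 and 55531 on Fl/Fl arrays, while Elf5 read 5 on all of them.

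Genes that steer the choice between the embryo proper and the trophoblast were measured for all 22 of the list. On day 4, 3 were higher and 6 lower in null, where 9.86% of all genes passed. On day 6, 4 were higher and 1 lower, where 8.67% of all genes passed. On days 0 and 2, 0 passed, beside 1.06% and 0.544% of all genes. Sox2, which keeps the pluripotent state, was higher by 2.20 on day 4 (limma adjusted p = 4.85e-05), and Fgf4, which ES cells secrete and trophoblast stem cells need, by 4.02 (limma adjusted p = 2.96e-05). Pou5f1, which holds back the trophoblast fate in ES cells, was higher by 3.19 on day 6 (limma adjusted p = 1.22e-06), when it averaged 4093 in null and 439 in Fl/Fl cells. Bmp4, which promotes trophoblast genes in culture and mesoderm in the embryo, was lower by -3.79 on day 6 (limma adjusted p = 0.000268). Wwtr1, a co-activator of Tead factors, was lower by -1.09 on day 4 (limma adjusted p = 0.0027). Without the high-Eif2s3y arrays 3 were higher and 3 lower on day 4, and 3 were higher and 1 lower on day 6. In that fit 2.39% of all probe sets passed on day 4 and 0.979% on day 6. Pou5f1 at 2.95 and Bmp4 at -2.64 still passed on day 6 (limma adjusted p = 0.0315 and 0.0105), and Wwtr1 at -1.28 no longer passed on day 4 (limma adjusted p = 0.0827).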

How the data were processed

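RNA of mouse ES cells was measured on 30 Affymetrix arrays. The authors deposited intensity per probe set, as whole numbers and not as logarithms. Per the labels' protocols, RNA was extracted with Trizol and biotinylated cRNA was made by the standard Affymetrix protocol. The sources used here do not give how probes were corrected, normalized and summarised. Array means lay between 331.8 and 363.6, and no further scaling was applied. The number of arrays limits the precision.

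Genes came from the platform annotation. Of 45101 probe sets, 64 manufacturer controls were left out, 34945 name 1 gene, 932 name several and 9160 none. Of the named ones, 34754 were matched to the RefSeq gene table (GRCm38.p6). Where a gene is given by 1 probe set it is the one with the highest mean log2 value. Values were transformed to log2(intensity + 4), and folds are on that scale, so they understate changes of low genes. The fit was made with limma 3.58.1 (R 4.3.3), a mean for each of the 10 groups and all 30 arrays, which leaves 20 residual degrees of freedom. Its moderated tests were two-sided, with Benjamini-Hochberg adjustment over all 45037 probe sets and a threshold of 0.05. The fit assumes 1 spread for all groups. Detection calls were not used, and readings at the lowest values of a probe set have no order.

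All 20 probe sets were named in every contrast, and of each list up to 4 genes with the smallest adjusted p, plus fixed lineage genes and defining markers. Mesp2, Tbx6, Wnt3a, Gjb5, Phlda2, Thbs1, Dazl, Prdm14 and Stra8 were named after their values were seen. The members and lists were chosen with earlier results of these data known. Alternatives were a pseudocount of 16, quantile normalization, a filter on the dimmest 40%, 1 probe set per gene, only the arrays compared, a replicate block, the sets by Eif2s3y and leaving out each array. Trend and robust moderation and the exact permutation test were added after seeing the data. On simulated data over 45037 probe sets, a log2 change of 1 was added to some probe sets with a mean above the median. It was recovered for 62% of them on day 0, 59% on days 2 and 4, 56% on day 6 and 55% on day 8. For the mean of the days 93% were recovered. Dimmer probe sets, such as that of Gata3 at percentile 39.1 of the means, are not covered by these shares.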

Additional observations from a re-analysis of the deposited data

Results flagged for a closer look

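The genotype difference of Cdx2 changed between days (limma F test, adjusted p = 0.0061): it was -1.84 on day 4 and 0.16 on day 8 on the log2 scale.

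Among 60 sets of 5 null arrays of 1 member probe set and day, 14 held an array far from the other 4. Chance gives about 1 in 20 for continuous values, a rate that does not hold for whole numbers tied near the lowest readings, where most of these were steps of a few units. Replicate 4 read 11 for Cdx2 on day 4 (next array 10), 13 for Rhox6 on day 4 (next 10), 17 for Rhox9 on day 4 (next 13) and 16 for Rhox9 on day 6 (next 12). The same replicate number read 13 for Hand1 on days 2 and 4 (next 16 on both), 12 for Gata2 on day 6 (next 11) and 7 for probe set 2 of Ascl2 on day 6 (next 8). Replicate 2 read 18 for Ascl2 on day 2 (next 15), 78 for Tfap2c on day 4 (next 53), 3 for probe set 2 of Gata2 on day 4 (next 4) and 29 for probe set 2 of Cdx2 on day 6 (next 5). Replicate 1 read 41 for Rhox9 on day 2 (next 22). Replicate 5 read 34 for probe set 2 of Hand1 on day 2 (next 13).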

How the results depend on the processing

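Counts of the 20 member probe sets that passed moved by over 1.5 times as follows. On day 0, 2 passed as reported, 1 without the 40% of probe sets with the lowest mean, with 1 probe set per gene, with only the arrays compared and with the replicate block, 9 with only the high-Eif2s3y null arrays and 0 without them. On day 2, 1 passed as reported, 2 with a pseudocount of 16, without the lowest 40% and with only the arrays compared, 5 with only the high-Eif2s3y arrays and 0 without them. On day 6, 2 passed as reported, 1 without the lowest 40% and with only the arrays compared, 6 with only the high-Eif2s3y arrays and 0 without them. On day 8, 1 passed as reported and 0 with quantile normalization, without the lowest 40% and without the high-Eif2s3y arrays. For the mean of the days, 10 passed as reported, 4 with the replicate block and 3 without the high-Eif2s3y arrays. With 1 probe set per gene, which leaves 10 to test, 8 changed over days in Fl/Fl cells, against 13. The genotype difference that changes between days passed for 1 as reported, for 2 with quantile normalization and with 1 probe set per gene, for 5 with only the high-Eif2s3y arrays and for 0 without them. No alternative but leaving out 1 array moved the count on day 4 or that for changes in null by over 1.5 times. The cause was not tested, apart from the fewer probe sets or arrays that some alternatives hold.

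Leaving out 1 array gave counts of 1 to 6 on day 0, 1 to 4 on day 2, 2 to 4 on day 4, 1 to 3 on day 6, 0 to 2 on day 8, 8 to 12 for the mean, 6 to 9 for changes in null, 12 to 14 in Fl/Fl cells and 1 to 4 for a changing difference. For probe set 3 of Ets2 on days 4 and 6 the difference of -0.08 ran between -0.17 and 0. Of 243 other values of single differences 198 kept their direction and call, 33 lost the call, 12 gained it and 0 turned. Replicate numbers did not pair the arrays, since deviations of arrays with the same number correlated between -0.381 and 0.244, so calls lost with the replicate block are not read as weaker effects. Near the lowest readings the arrays could not show a change.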

Other observations

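Tfap2c and both Rhox genes are also used in germ cells, so 9 germ cell genes were read beside them, of which 8 were measured. On days 0 and 2, 0 of these 8 passed between null and Fl/Fl cells, beside 1.06% and 0.544% of all genes. On day 4, 2 were higher and 1 lower in null, where 9.86% of all genes passed. On day 6, 1 was higher, where 8.67% of all genes passed. Without the high-Eif2s3y arrays, Dazl, Prdm14 and Stra8 were higher on day 0, where that fit holds 1 null array. Dppa3, a gene of germ cells and of ES cells, averaged 1221, 370.8, 49.4, 7.2 and 6.5 in null cells and 1872, 884, 85, 23.5 and 24 in Fl/Fl cells over days 0 to 8. Ddx4, a helicase of germ cells, averaged 88.7, 118.8, 61.6, 23.4 and 16 in null cells and 125.5, 174, 46, 18 and 17 in Fl/Fl cells. Summed over the 8 genes the intensity ran between 1383 and 2239 on null arrays and was 2159 and 2539 on Fl/Fl arrays on day 0, and Dppa3 made up 70.7% of it in null and 79.7% in Fl/Fl cells.

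Over the 10 group means, the genes most like Ascl2 were Rhox9 (r = 0.977), Rhox6 (r = 0.964) and Gtpbp6 (r = 0.96). Those most like Rhox6 were Rhox9 (r = 0.991), Rabgap1l (r = 0.962) and 2610037D02Rik (r = 0.961), and those most like Tfap2c were AU018091 (r = 0.976), Ctnnal1 (r = 0.942) and Kit (r = 0.929), which encodes a receptor of germ cells and blood precursors. These values describe courses that share the same arrays.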
